A study of Homo sapiens with 6 samples.

Results

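The EGF family ligands and receptors described here are 9 genes, taken by symbol from the 63140 genes listed for each library. They are the receptors *EGFR*, *ERBB2* and *ERBB3*, the ligands *HBEGF*, *AREG*, *EREG*, *TGFA* and *NRG1*, and the feedback inhibitor *ERRFI1*. A filter on low counts kept 14451 genes for testing, and 5 of the 9 passed it: *EGFR*, *ERBB2*, *HBEGF*, *NRG1* and *ERRFI1*. BT-549, an established triple negative breast cancer cell line labelled as wild type, was grown for 24 h in adipocyte conditioned medium (ACM) or in unconditioned medium (UCM), and polyA RNA was sequenced from 3 replicates of each. The comparison asks how the breast cancer cells respond to what adipocytes release. The labels give ACM at 50%, whereas the study's supplementary methods describe undiluted ACM for RNA-seq, so the dose is uncertain. ACM was collected from mouse OP9 cells turned into adipocytes in a low-serum medium with insulin and sodium oleate. The composition of UCM is not given in the sources used here. The supplementary methods list a medium with serum and insulin for BT-549, without saying that UCM is that medium. Products of the adipocytes and differences between the media, serum among them, therefore cannot be told apart.

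ERBB receptors are receptor tyrosine kinases that pair with each other when a ligand binds. *EGFR* binds the EGF-like ligands heparin-binding EGF (*HBEGF*), amphiregulin, epiregulin and TGF-alpha, *ERBB3* binds neuregulins, and *ERBB2* has no known ligand and acts as a partner. The ligands are made as membrane-bound precursors and released by ADAM proteases, and the active receptors signal through RAS and ERK, which in turn raise inhibitors such as *ERRFI1* (MIG6), a protein that binds the EGFR kinase and blocks it. In triple negative breast cancer, EGFR is often abundant.

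The total count per library was 21053214, 18011677 and 18378771 in ACM replicates 1 to 3, and 20975771, 18591257 and 17135270 in UCM replicates 1 to 3. The replicates were grown and lysed as wells of a multiwell plate, and whether they were set up on separate days is not given. The p-values measure only the spread between these samples, which may be technical. The libraries of a group were not equally alike. UCM replicates 2 and 3 differed with a chi-square of 2.32 per tested gene, against 21.5 and 19.9 between UCM replicate 1 and those libraries, and 13.1 to 18.8 among the ACM libraries. Between the groups it was 17.7 to 41.6. On the first principal component, which held 44.6% of the variance, ACM replicate 2 lay at -30.5 while the other ACM libraries lay at -14.7 and -11.4. On the second, which held 25.2%, the libraries numbered 1 lay at 17.6 (ACM) and 24.3 (UCM), and the other 4 between -15.6 and -7.70.

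The labelled cell type is epithelial, but the epithelial markers were low. Of 13 such markers, 12 stayed under 2 CPM (counts scaled to library size) in every library, among them *CDH1*, *KRT8* and *KRT18*; *ESRP1* had 0 counts in all 6 libraries and *EPCAM* had 2 counts, in ACM replicate 1. Only *MUC1* was higher, at 19.6 to 34.8 CPM. The epithelial list summed to 27.2 to 38.1 CPM in ACM and 23.1 to 26.4 CPM in UCM, most of it *MUC1* (log2 fold change 0.43, edgeR adjusted p = 0.115). On CPM *MUC1* was higher in every ACM library, but on TPM, which also divides by transcript length, the groups overlapped and the ACM mean was the lower, at 50.6 ± 7.48 against 53.7 ± 27.5 (SD, n = 3). The 9 mesenchymal markers, with *VIM* the most abundant, summed to 8237 to 8576 CPM in ACM and 7965 to 7988 CPM in UCM. Both sums on CPM were thus apart by medium, but of the mesenchymal markers 5 had a log2 fold change above 0 and 4 below. The part of these lists in the results below was not tested. The estrogen and progesterone receptor genes *ESR1* and *PGR* had 0 counts in all 6 libraries. Because RNA was taken from whole cultures, fewer cells of a kind and less RNA per cell cannot be told apart.

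Among the members, *HBEGF* was lower in ACM at an adjusted p of at most 0.05, and none was higher at that threshold by edgeR's quasi-likelihood test with Benjamini-Hochberg adjustment. Across all tested genes, 484 (3.35%) were higher and 320 (2.21%) lower at the same threshold. These counts were 909 and 703 with the replicate number as a block. With a filter of at least 1 count they were 1045 and 679, of a larger set of 25486 tested genes. At an unadjusted p of at most 0.05 without a fold limit, 1 member was higher and 1 lower, beside 1714 (11.9%) and 1659 (11.5%) of all tested genes. DESeq2 called 1 member higher, *ERRFI1*, whereas limma called 0. Of all genes, DESeq2 called 725 higher and 422 lower of 13133 tested. Limma on log2(TPM + 1) called 230 and 132 of 14451. With an unadjusted p of at most 0.05 and a fold change of at least 1.5 (0.58 on the log2 scale), *ERRFI1* was higher and *HBEGF* lower, against 596 (4.12%) higher and 247 (1.71%) lower of all tested genes. The same genes were those whose groups did not overlap: 1 member had every ACM library above every UCM library, as did 13.9% of tested genes, and 1 had every ACM library below, as did 15.1%. With 5 members tested, 1 gene in each direction is too few to set against those shares. Single libraries changed these counts: without UCM replicate 1 *EGFR* was called higher, without ACM replicate 1 *ERRFI1* was, and without ACM replicate 2 *HBEGF* fell short of 1.5-fold. With the replicate number as a block, *ERRFI1* lost its 1.5-fold call, since its unadjusted p was 0.0959. The genes called higher of all tested were 197 without ACM replicate 2, 320 without ACM replicate 3, and 738, 125 and 156 without UCM replicates 1, 2 and 3. Those called lower were 206, 87 and 190 without ACM replicates 1 to 3, and 572, 70 and 62 without UCM replicates 1 to 3. The median log2 fold change of the 5 members was 0.12, and that of all tested genes was -0.01.

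**Figure D1:**
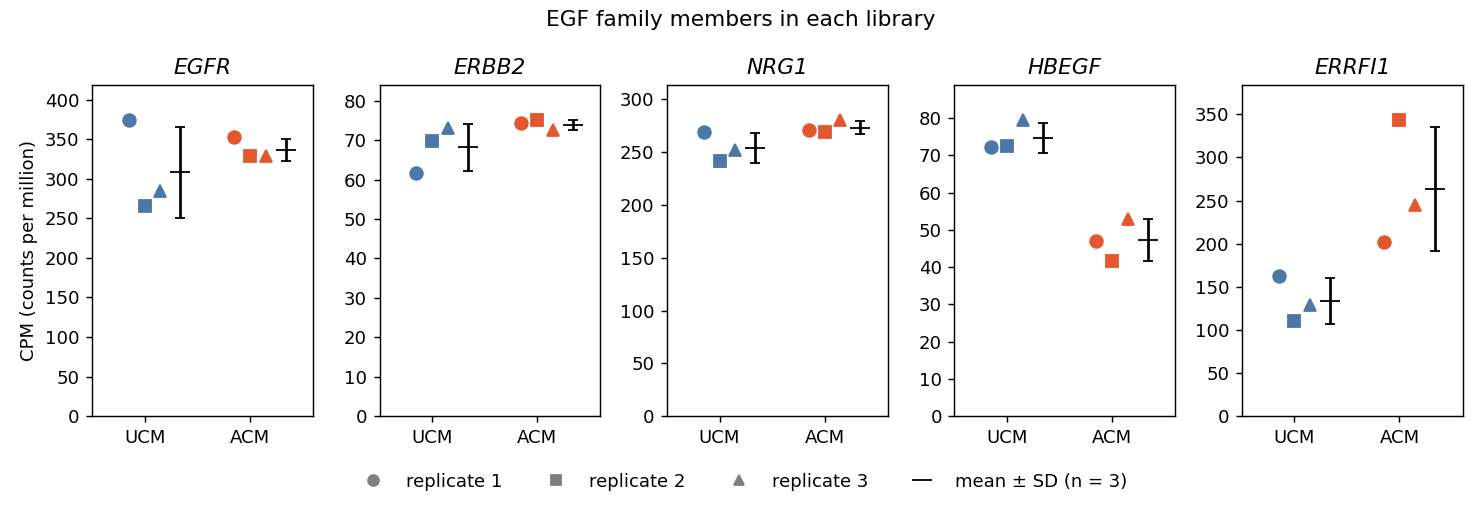
CPM of the 5 tested members in each library, with UCM in blue, ACM in orange, a marker shape for each replicate number, and the mean with its SD (n = 3) in black. The *HBEGF* points in ACM lie between 41.7 and 52.9 CPM, all below the UCM points, and the *ERRFI1* points in ACM lie between 202 and 343 CPM, all above the UCM points.

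*EGFR* (ENSG00000146648.21, chr7:55019017-55211628, plus strand, GRCh38), the receptor for most ligands of the family, was well expressed in both media. It was at 353, 329 and 329 CPM in ACM replicates 1 to 3 and at 374, 266 and 285 CPM in UCM replicates 1 to 3. The groups overlapped, because UCM replicate 1 was the highest of the 6 libraries while UCM replicates 2 and 3 were the lowest. The ACM mean was 337 ± 13.9 CPM and the UCM mean 308 ± 57.5 CPM (SD, n = 3). The log2 fold change was 0.13 (SE 0.12, 95% interval -0.14 to 0.40, edgeR adjusted p = 0.575), so a difference was not shown, and a rise or fall within that interval could not be told from the spread. Leaving out UCM replicate 1 gave 0.30 with an edgeR adjusted p of 0.0251, and the adjusted p ranged from 0.0251 to 0.929 over the 14 alternatives. Leaving out both libraries numbered 1, an alternative chosen after seeing the data, gave 0.27 with an edgeR adjusted p of 0.0239. Leaving out ACM replicate 2 together with UCM replicate 1, likewise chosen after seeing the data, gave 0.31 with an edgeR adjusted p of 0.0237. The call for *EGFR* thus depends on UCM replicate 1.

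*ERBB2* (ENSG00000141736.14, chr17:39687914-39730426, plus strand), the partner receptor without a ligand of its own, was at 74.3, 75.0 and 72.6 CPM in ACM and at 61.6, 69.8 and 73.1 CPM in UCM. UCM replicate 1 was the lowest, and UCM replicate 3 lay within the ACM range. The log2 fold change was 0.12 (SE 0.08, 95% interval -0.06 to 0.29, edgeR adjusted p = 0.408). Its direction changed with the scale. On TPM, the ACM mean was 27.5 ± 1.05 and the UCM mean 28.8 ± 3.50 (SD, n = 3), and with the effective length as an offset the log2 fold change was -0.04 (edgeR adjusted p = 0.882, the highest of the 14 alternatives, of which the lowest was 0.311). The effective length that RSEM assigned, the mean length of the gene's transcripts weighted by their estimated abundance, was 3685 to 3963 bases in ACM and 3228 to 3514 bases in UCM, and did not overlap. On the opposite strand, *MIEN1* and *PGAP3* overlap *ERBB2*. Their counts were 427 to 542 and 113 to 178 per library, beside 1253 to 1564 for *ERBB2*. Whether counting used the strand is not given in the sources used here, so reads in the shared stretches are uncertain.

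*ERBB3* (ENSG00000065361.17, chr12:56076799-56103505, plus strand), the neuregulin receptor, was near the limit of detection. It had 11, 9 and 4 counts in ACM and 5, 10 and 3 counts in UCM, and did not pass the filter. The groups overlapped, at means of 0.416 ± 0.172 CPM with ACM and 0.316 ± 0.194 CPM with UCM (SD, n = 3), and a difference was not detectable at this depth. The remaining receptor of the family, *ERBB4*, another neuregulin receptor, had 1 count, in ACM replicate 1, over the 6 libraries.

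*HBEGF* (ENSG00000113070.8, chr5:140332843-140346603, minus strand), which encodes a ligand of EGFR, was the member that fell in ACM. It was at 47.1, 41.7 and 52.9 CPM in ACM replicates 1 to 3 and at 72.3, 72.4 and 79.4 CPM in UCM replicates 1 to 3. All 3 ACM libraries were below all 3 UCM libraries, with ACM replicate 2 the lowest. The ACM mean was 47.3 ± 5.60 CPM and the UCM mean 74.7 ± 4.03 CPM (SD, n = 3). The log2 fold change was -0.66 (SE 0.09, 95% interval -0.87 to -0.45, edgeR adjusted p = 0.00498), which is a level 1.58-fold lower in ACM. The fall passed the adjusted threshold under all 14 alternatives, with log2 fold changes from -0.75 to -0.58. Without ACM replicate 2 the estimate was -0.579, just short of the 1.5-fold limit, with an edgeR adjusted p of 0.0182; over the 14 alternatives the adjusted p ranged from 5.10e-11 to 0.0305. The effective length of *HBEGF* was alike in both media, at 2049 to 2079 bases in ACM and 2050 to 2078 bases in UCM.

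*NRG1* (ENSG00000157168.22), which encodes neuregulin ligands of ERBB3 and ERBB4, was the most abundant ligand. It was at 271, 269 and 280 CPM in ACM and at 269, 242 and 252 CPM in UCM. The groups overlapped, since UCM replicate 1 lay just above ACM replicate 2. The log2 fold change was 0.10 (SE 0.07, 95% interval -0.04 to 0.25, edgeR adjusted p = 0.378). The gene spans 1216 kb on chromosome 8, and 35 transcripts of it are listed. Its effective length was 2521 to 3050 bases in ACM and 2628 to 2739 bases in UCM. The level is a sum over these transcripts, and which neuregulin forms it holds was not tested.

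The other 3 ligands, which bind EGFR, were not detected or almost so. *AREG* (ENSG00000109321.11, chr4:74445136-74455005, plus strand, amphiregulin) and *EREG* (ENSG00000124882.4, chr4:74365145-74388749, plus strand, epiregulin) had 0 counts in all 6 libraries. A count of 0 over the 3 libraries of a group allows a level of up to 0.0525 CPM in ACM and 0.0528 CPM in UCM (3 counts over the group, counting error only). *TGFA* (ENSG00000163235.16, chr2:70447284-70554193, minus strand, TGF-alpha) had 3 counts, all in UCM replicate 1, and 0 counts in the other 5 libraries, which is at the same limit. No fold change is given for these 3 genes. The family's remaining ligands were also low. *NRG2* had 4 to 17 counts per library and *NRG4* had 6 to 16, while *EGF* had 0 to 3. *EPGN* and *NRG3* had at most 1 count in a library, and *BTC* had 0 counts in all 6. None of these 6 genes, nor *ERBB4*, passed the filter, and with a filter of at least 1 count in total the edgeR adjusted p of those with a count was at least 0.660.

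*ERRFI1* (ENSG00000116285.13, chr1:8004404-8026309, minus strand), the feedback inhibitor of EGFR, had the widest difference in level among the tested members. It was at 202, 343 and 245 CPM in ACM replicates 1 to 3 and at 162, 110 and 129 CPM in UCM replicates 1 to 3. The groups did not overlap, with ACM replicate 2 far above the other libraries and UCM replicate 1 the highest of its group. Mean levels were 263 ± 72.2 CPM with ACM and 134 ± 26.6 CPM with UCM (SD, n = 3). The log2 fold change was 0.98 (SE 0.23, 95% interval 0.41 to 1.54), a level 1.97-fold higher in ACM, and the edgeR adjusted p of 0.0700 missed the threshold. The adjusted p was 0.00916 with DESeq2 and 0.0419 by edgeR without ACM replicate 1. Across the 14 alternatives its lowest value was 0.00916 and its highest 0.261, the latter with the replicate number as a block, with log2 fold changes from 0.74 (without ACM replicate 2) to 1.15. Leaving out both libraries numbered 1 gave 1.31 with an edgeR adjusted p of 0.0394, and leaving out ACM replicate 2 with UCM replicate 1 gave 0.91 with an edgeR adjusted p of 0.00754, both chosen after seeing the data. A long noncoding RNA gene on the opposite strand, ENSG00000284747, overlaps *ERRFI1* and had 12 to 30 counts per library, which is 0.515% of the *ERRFI1* counts.

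**Figure D2:**
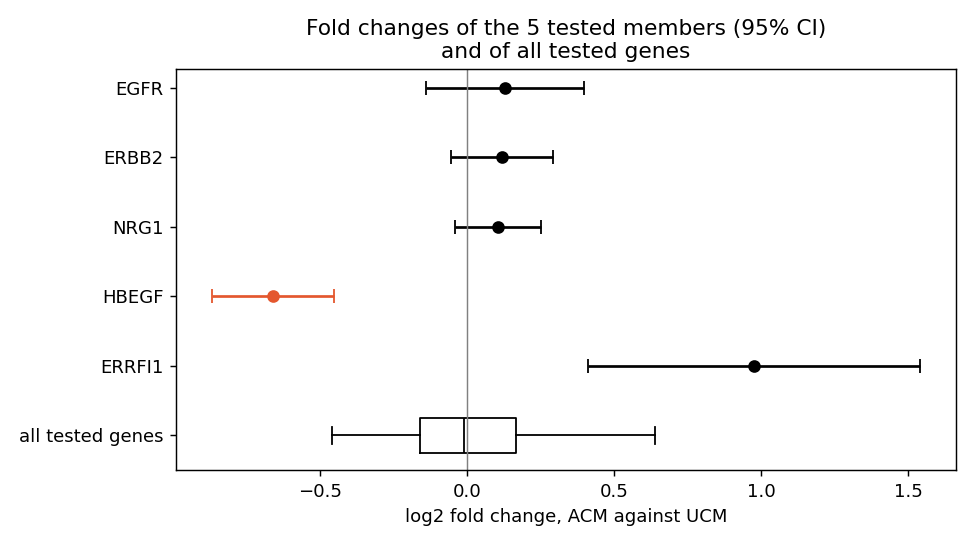
Log2 fold changes of the 5 tested members, ACM against UCM, with 95% intervals (edgeR, n = 3 per group), above a box of all 14451 tested genes with its median, quartiles (-0.16 and 0.17) and whiskers at the 5th and 95th percentiles (-0.46 and 0.64). *HBEGF*, in orange at -0.66, is the member with an adjusted p of at most 0.05; *ERRFI1* lies at 0.98 with the widest interval, and the intervals of *EGFR*, *ERBB2* and *NRG1* include 0.

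The sequences before the start sites of *HBEGF* and *ERRFI1* are shown because these were the members whose groups did not overlap. That of *AREG* is shown as an example of a member with no counts. *EREG* also had no counts, and its sequence is not shown. Each is the 250 bases before the gene's start in RefSeq (GRCh38.p14), 5′ to 3′ on the gene's strand, in lower case with any motif found in capitals. The motifs searched on both strands were TGANTCA (AP-1) and TGACGTCA (CRE), neither of which contains the other.
*HBEGF*, chr5:140346604-140346853, minus strand: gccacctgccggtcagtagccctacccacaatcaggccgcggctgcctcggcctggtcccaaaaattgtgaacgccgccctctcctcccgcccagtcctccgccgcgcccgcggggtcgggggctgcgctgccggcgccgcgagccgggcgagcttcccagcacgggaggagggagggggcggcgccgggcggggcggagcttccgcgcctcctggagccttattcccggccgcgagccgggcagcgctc
*ERRFI1*, chr1:8026310-8026559, minus strand: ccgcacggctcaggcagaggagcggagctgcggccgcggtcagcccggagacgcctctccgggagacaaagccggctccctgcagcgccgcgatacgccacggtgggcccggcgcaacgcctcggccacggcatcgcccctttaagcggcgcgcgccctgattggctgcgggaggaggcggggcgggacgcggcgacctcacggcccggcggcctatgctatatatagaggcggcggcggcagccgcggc
*AREG*, chr4:74444886-74445135, plus strand: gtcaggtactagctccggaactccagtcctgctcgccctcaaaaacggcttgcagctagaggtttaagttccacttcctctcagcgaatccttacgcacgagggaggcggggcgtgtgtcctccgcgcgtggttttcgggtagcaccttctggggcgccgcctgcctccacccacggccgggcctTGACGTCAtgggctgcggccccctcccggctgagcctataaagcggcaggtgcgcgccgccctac
The *HBEGF* and *ERRFI1* stretches held neither motif, so nothing is in capitals there, and that of *AREG* held the CRE motif, whose first base lies 65 bases before the start. The *HBEGF* stretch had 76.4% G and C with 33 CpG pairs, that of *ERRFI1* 75.2% with 39, and that of *AREG* 65.2% with 23. Over all 35116 promoter stretches of this length, 6.57% held the AP-1 motif and 1.65% the CRE motif. RefSeq promoters were matched for 7 of the 9 members, and *ERBB3* and *NRG1* had no entry. Of the others, the *ERBB2* stretch and the second of the *EGFR* stretches held the AP-1 motif, and those of *EREG* and *TGFA* and the first of *EGFR* held neither. A match is a description of the letters only, and binding was not measured.

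Levels can be compared between genes per length, as TPM. In UCM, *NRG1* was the highest member at 136 ± 6.47 TPM (SD, n = 3), followed by *ERRFI1* at 74.6 ± 18.1, *HBEGF* at 51.9 ± 2.60, *EGFR* at 49.1 ± 10.5, *ERBB2* at 28.8 ± 3.50 and *ERBB3* at 0.470 ± 0.416 TPM. *HBEGF* and *EGFR* overlapped between libraries in UCM, and the other neighbours in this order did not. In ACM, *ERRFI1* at 144 ± 38.2 TPM and *NRG1* at 141 ± 16.3 TPM overlapped, *EGFR* followed at 52.9 ± 1.63 TPM, and *HBEGF* at 32.5 ± 4.66 TPM overlapped *ERBB2* at 27.5 ± 1.05 TPM. Of the tested genes ranked by mean TPM, *NRG1* stood at place 1256 in UCM and 1171 in ACM, and *ERRFI1* at place 2348 in UCM and 1134 in ACM.

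**Figure D3:**
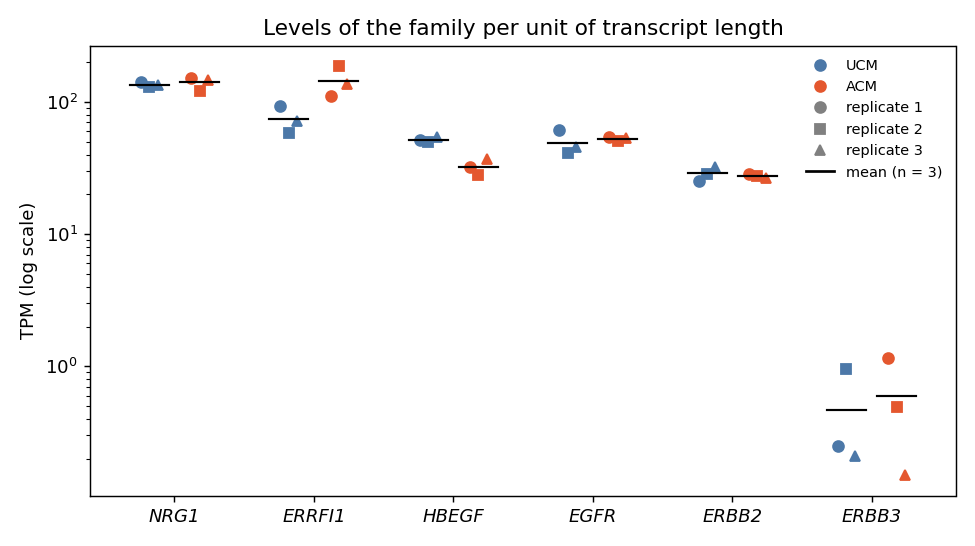
TPM on a log axis of the 6 members with counts in every library, with UCM in blue, ACM in orange, a marker shape for each replicate number and the mean (n = 3) as a line. *ERBB3* lies between 0.15 and 1.15 TPM, far below the other 5, and *HBEGF* moves from beside *EGFR* in UCM to beside *ERBB2* in ACM.

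The ratio of the ligand *HBEGF* to its receptor *EGFR* on TPM was 0.591, 0.549 and 0.700 in ACM replicates 1 to 3 and 0.841, 1.21 and 1.21 in UCM replicates 1 to 3. The groups did not overlap, and the UCM library nearest to ACM was replicate 1, where *EGFR* was highest. The ratio of the inhibitor *ERRFI1* to *EGFR* was 2.05, 3.64 and 2.55 in ACM and 1.54, 1.42 and 1.58 in UCM, again without overlap. That of *ERBB2* to *EGFR* overlapped, at 0.526, 0.541 and 0.496 in ACM and 0.418, 0.698 and 0.715 in UCM. These ratios are descriptions of transcript levels, and protein was not measured.

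The genes whose levels over the 6 libraries were most like those of *EGFR*, *HBEGF* and *ERRFI1* were found by Pearson's r of log2 CPM among 9671 tested genes with a mean of at least 10 CPM. Those most like *EGFR* were *BRWD1* (r = 0.997), *CBL* (r = 0.992) and *MACF1* (r = 0.988). Like *EGFR*, these were not called at the adjusted threshold, with log2 fold changes of 0.16, 0.11 and 0.14. *CBL* encodes a ubiquitin ligase that marks active EGFR for degradation. It was at 124, 113 and 115 CPM in ACM and at 140, 87.7 and 98.0 CPM in UCM, and so shares the high value in UCM replicate 1. Without that library *BRWD1*, *CBL* and *MACF1* were called higher, at 0.35, 0.35 and 0.53 on the log2 scale (edgeR adjusted p = 0.0266, 0.0200 and 0.00647), and over the 14 alternatives the adjusted p reached 0.885, 0.961 and 0.985. Without UCM replicate 2, *CBL* and *MACF1* turned to -0.02 and -0.03. Those most like *HBEGF* were *NTRK3* (r = 0.998), *NCAPG* (r = 0.997) and *CINP* (r = 0.996), which fell with log2 fold changes of -0.32, -0.34 and -0.44 (edgeR adjusted p = 0.0445, 0.0228 and 0.0326). These calls were lost under 9, 7 and 7 of 14 alternatives, with adjusted p from 0.0245 to 0.247, from 0.00187 to 0.135 and from 0.00811 to 0.143. Each was lost without ACM replicate 1 or 2 or UCM replicate 2 or 3, and *NTRK3* also without ACM replicate 3, with adjusted p of at most 0.197, 0.135 and 0.143 among these. The log2 fold changes when each library was left out were -0.37 to -0.28, -0.38 to -0.30 and -0.51 to -0.38. Those most like *ERRFI1* were *ANO6* (r = 0.996), *PHLDA1* (r = 0.995) and *ESCO1* (r = 0.995), with log2 fold changes of 0.25, 1.26 and 0.35, none past the adjusted threshold. *ANO6* passed without UCM replicate 1 (edgeR adjusted p = 0.0348) and with a filter of at least 1 count in total (0.0459), in a range of 0.0348 to 0.371, and *PHLDA1*, also an ERK-responsive gene, passed under 4 alternatives, DESeq2 among them (0.00521 to 0.234). With 6 libraries such values are common, and r was above 0.9 for 181, 726 and 505 genes. The 6 points come from 1 cell line, and r includes the difference between the groups.

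Ligands of the family are released from the cell surface by proteases of the ADAM family. All 10 genes of a list of these proteases and their regulators were tested, and *ADAM12* alone passed the adjusted threshold, as higher in ACM, beside 3.35% of all tested genes. It was at 351, 411 and 371 CPM in ACM and at 275, 277 and 293 CPM in UCM, with every ACM library above every UCM library. Its log2 fold change was 0.42 (SE 0.07, edgeR adjusted p = 0.0120), and the call was lost without UCM replicate 2 (0.41, edgeR adjusted p = 0.0706), the highest adjusted p over the alternatives, of which the lowest was 5.11e-06. No gene of the list was lower at the adjusted threshold by edgeR, DESeq2 or limma, nor at an unadjusted p of at most 0.05, where 3 were higher by edgeR, beside 11.9% of all tested genes. The median log2 fold change of the list was 0.08, beside -0.01 over all tested genes.

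Of 26 genes of receptor adaptors and the kinase cascade, all were tested and 1 passed as higher (beside 3.35% of all tested genes), *SHC1*, which encodes an adaptor that binds active receptors. It was at 474, 526 and 489 CPM in ACM and at 418, 414 and 404 CPM in UCM, and its log2 fold change was 0.27 (SE 0.07, edgeR adjusted p = 0.0428). The call was lost under 7 of the 14 alternatives, with adjusted p from 0.00509 to 0.178. Leaving out 1 library, it was lost without ACM replicate 2 (0.145), ACM replicate 3 (0.0904), UCM replicate 2 (0.178) and UCM replicate 3 (0.175), with log2 fold changes of 0.23, 0.28, 0.27 and 0.27. At an unadjusted p of at most 0.05, 2 genes of the list were higher and 2 lower by edgeR, beside 11.9% and 11.5% of all tested genes. At the adjusted threshold 0 were lower by edgeR, DESeq2 or limma. The median was -0.01. Of 20 genes of receptor trafficking and degradation, 19 were tested and 0 passed at the adjusted threshold by edgeR, DESeq2 or limma, while 3 were higher and 2 lower at an unadjusted edgeR p of at most 0.05, near the 11.9% and 11.5% of all tested genes. Their median was 0.10. The gene not tested, *CBLC*, had 0 counts in all 6 libraries.

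Genes that respond to ERK, and many of which feed back on it, had more called genes than the other pathway lists, though the difference between lists was not tested. The lists were chosen with earlier results of these data known. The shares of all tested genes given here are therefore a description and not a test of the list. All 25 were tested, 8 were higher in ACM at the adjusted threshold and 0 lower, beside 3.35% and 2.21% of all tested genes. The median log2 fold change was 0.56, beside -0.01 over all tested genes. None was lower by DESeq2 or limma either, nor at an unadjusted p of at most 0.05 by edgeR, where 17 were higher, beside 11.9% of all tested genes. Every ACM library was above every UCM library for 16 of the 25, beside 13.9% of all tested genes. *ETV4*, an ETS factor, was at 14.5, 21.6 and 13.4 CPM in ACM and at 7.06, 5.70 and 5.54 CPM in UCM, with a log2 fold change of 1.43 (edgeR adjusted p = 0.00497). *SPRED2*, an inhibitor of the RAS to RAF step, was at 32.6, 46.2 and 41.1 CPM in ACM and at 24.2, 18.7 and 18.7 CPM in UCM, with a log2 fold change of 0.96 (edgeR adjusted p = 0.00915). Both calls held under all 14 alternatives. The Sprouty genes *SPRY2* and *SPRY4*, inhibitors of receptor tyrosine kinase signaling, rose by 0.69 and 1.46 on the log2 scale (edgeR adjusted p = 0.0157 and 0.0351), and the ETS factor *ETV5* by 1.59 (edgeR adjusted p = 0.0236).

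**Figure D4:**
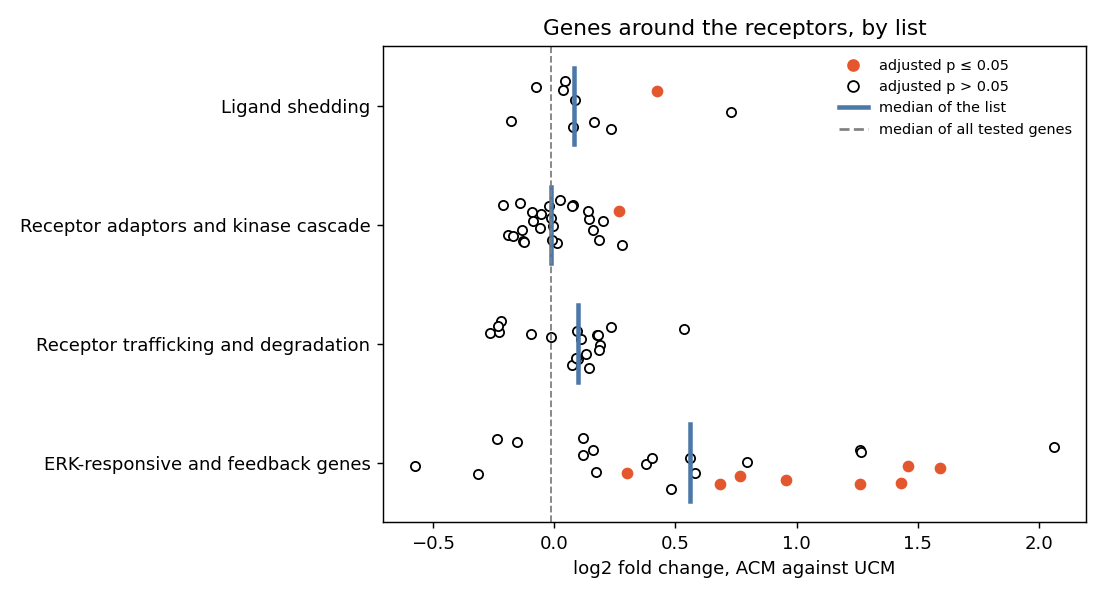
Log2 fold changes, ACM against UCM, of the tested genes of 4 lists, with genes at an edgeR adjusted p of at most 0.05 filled in orange, a blue bar at each list's median and a dashed line at the median of all tested genes (-0.01). The ERK-responsive list, with its median at 0.56, reaches farther to the right than the other lists, whose medians are 0.08, -0.01 and 0.10. The lists were chosen with earlier results of these data known.

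The count of 8 ERK-responsive genes, beside 484 of all tested genes, was lowest without UCM replicate 2 or 3. It became 2 without UCM replicate 2 and 3 without UCM replicate 3, where 125 and 156 of all tested genes were higher. It was 6 without ACM replicate 2, 10 without UCM replicate 1 and 13 with DESeq2. Of all tested genes, 197, 738 and 725 were higher in those fits. The ERK-responsive count was 9 without both libraries numbered 1 and 14 without ACM replicate 2 and UCM replicate 1. All genes called higher were 1017 and 611 there, and both alternatives were chosen after seeing the data. The call of *SPRY2* was lost without ACM replicate 2 (edgeR adjusted p = 0.0530) or UCM replicate 2 (0.0768), where its log2 fold changes were 0.54 and 0.66, with adjusted p from 4.31e-07 over the alternatives. That of *SPRY4* was lost without ACM replicate 1 (0.0646), UCM replicate 2 (0.155) or UCM replicate 3 (0.129), at log2 fold changes of 1.52, 1.36 and 1.34, with adjusted p from 1.75e-14. It was also lost without both libraries numbered 1 (0.0544), at 1.80. That of *ETV5* was lost without UCM replicate 2 (0.114), without UCM replicate 3 (0.106) or with the replicate number as a block (0.0667), at log2 fold changes of 1.48, 1.49 and 1.58, with adjusted p from 3.22e-12. Its log2 fold change was 0.98 with limma-trend on log2(TPM + 1). ACM replicate 2 was the highest of the 6 libraries for 18 of the 25 genes, beside 21.7% of all tested genes, and it was also the highest for *ERRFI1*. UCM replicate 1 was the highest UCM library for 14 of the 25, beside 38.0% of all tested genes. Of the 25 log2 fold changes, 21 were above 0 and 4 below. *FOS* had 1.57, 6.08 and 5.27 CPM in ACM and 0.758, 9.73 and 8.75 CPM in UCM, lowest in both libraries numbered 1, and *EGR1* was also lowest in those libraries. These genes were picked after their values were seen. The part of the libraries' differences in the result was not tested.

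**Figure D5:**
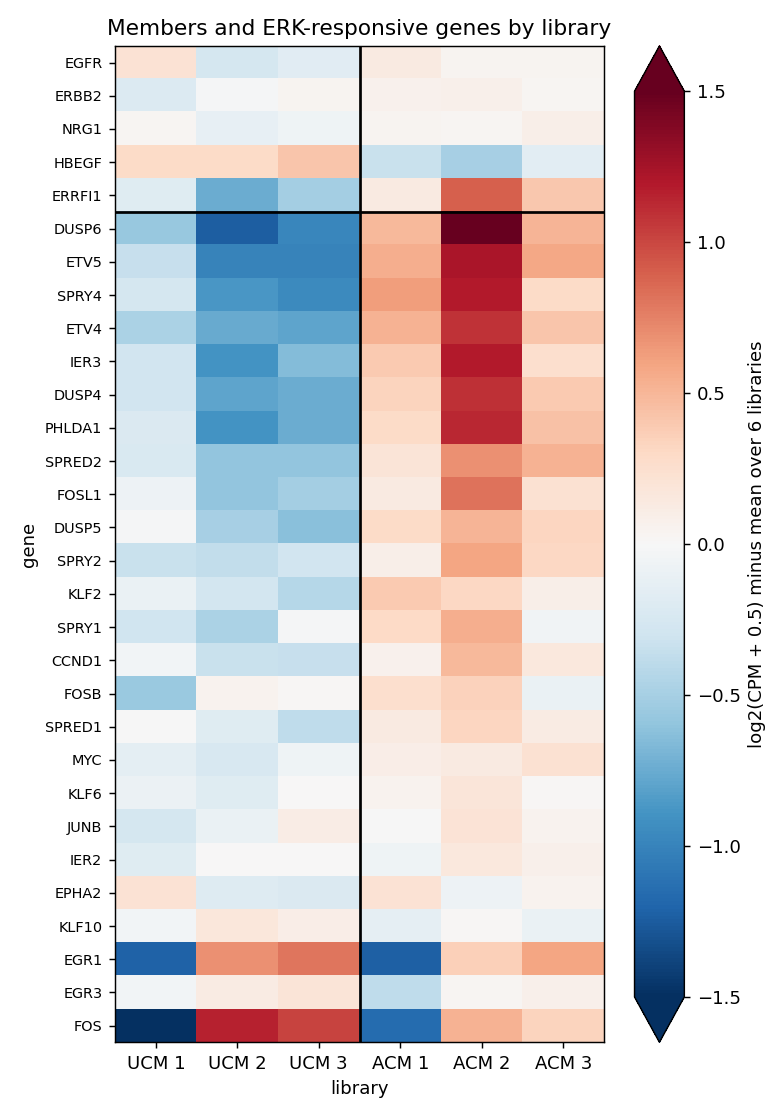
Log2(CPM + 0.5) minus the mean over the 6 libraries, in red above and blue below the mean, for the 5 tested members (above the line) and the 25 ERK-responsive genes ordered by fold change, with UCM libraries on the left and ACM libraries on the right. *ERRFI1* and the genes at the top of the list are highest in ACM 2, whereas *HBEGF* is high in every UCM library and *FOS* and *EGR1* are low in the libraries numbered 1.

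Markers of other cells were also read. Of 10 adipocyte markers, *ADIPOQ*, *LEP*, *CIDEC*, *CIDEA* and *RETN* had 0 counts in all 6 libraries, 9 stayed under 2 CPM in every library, and the list summed to 12.4, 15.7 and 14.1 CPM in ACM and 10.0, 12.0 and 12.9 CPM in UCM, nearly all of it *PPARG*. Of 5 leukocyte markers, *CD3E* and *LYZ* had 0 counts, and *PTPRC* had 3 to 6 counts per library. The exception was *CD68*, a lysosomal protein gene not limited to leukocytes, at 12.1, 29.1 and 16.0 CPM in ACM and 6.59, 4.79 and 5.36 CPM in UCM. Its log2 fold change was 1.76 (edgeR adjusted p = 0.0335), a call lost without any of the UCM replicates (edgeR adjusted p = 0.0772, 0.160 and 0.152 without replicates 1, 2 and 3) or with the replicate number as a block (0.0763), and with adjusted p from 6.17e-09 to 0.160 over the alternatives. The log2 fold changes in those 4 settings were 1.91, 1.66, 1.74 and 1.68. The list summed to 12.8, 29.6 and 16.5 CPM in ACM and 7.01, 5.81 and 5.89 CPM in UCM, and its part in the results for the members was not tested. Of the other marker lists, 3 of 13 epithelial, 9 of 9 mesenchymal, 1 of 3 hormone receptor and 2 of 10 adipocyte genes were tested. At the adjusted threshold 0 passed by edgeR, DESeq2 or limma. At an unadjusted edgeR p of at most 0.05, 1 epithelial gene and 2 mesenchymal genes were higher and 1 mesenchymal gene was lower. Of the hormone receptor and adipocyte genes 0 passed it. These counts stand beside 11.9% higher and 11.5% lower of all tested genes.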

How the data were processed

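BT-549 cells were profiled by polyA RNA-seq in 3 ACM and 3 UCM libraries, grouped by their labels. The authors trimmed reads with Trim Galore, aligned them with STAR to GRCh38 and estimated gene levels with RSEM. The deposited expected counts per gene, which need not be whole, were rounded to whole numbers, and the deposited TPM values and effective lengths were used as given. A table of the authors' own fold changes was not used. Gene symbols were matched for 62541 of 63140 identifiers. Positions are from GENCODE 44.

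Counts were tested with edgeR 4.0.16 in R 4.3.3 (filterByExpr, TMM, robust quasi-likelihood test, Benjamini-Hochberg adjustment over 14451 genes). CPM are scaled to the TMM-adjusted library size. The common biological coefficient of variation was 0.115. Alternatives were DESeq2 1.42.0, RLE in place of TMM, a looser filter (1 count in total) and a stricter one (10 counts in every library), limma 3.58.1 (limma-trend) on log2(TPM + 1) and log2(TPM + 0.1), the effective length as an offset, the replicate number as a block, and leaving out each library.

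The members and lists were chosen with earlier results of these data known. Named genes are the 9 members, the other family genes, up to 5 genes per list with the smallest adjusted p among those called, and the 3 genes most like *EGFR*, *HBEGF* and *ERRFI1*. Outside this rule, *FOS* and *EGR1* were picked after their values were seen, and markers, genes that overlap a member and the untested *CBLC* are named as checks. Intervals are 95% and cover the spread between libraries; floors of 3 counts cover counting error only. An exact permutation test of 3 against 3 libraries cannot go below p = 0.1, so none is given.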

Additional observations from a re-analysis of the deposited data

How the results depend on the processing

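*HBEGF* kept its direction and its call under all 14 alternatives, and *NRG1* stayed short of the threshold under all 14. *ERBB2* turned from 0.12 to -0.0577 with limma-trend on log2(TPM + 1), to -0.0593 on log2(TPM + 0.1), and to -0.0390 with the effective length as an offset. These are scales that divide by length, which differed between the groups for *ERBB2*. *CBL* ranged from -0.0213 to 0.346 and *MACF1* from -0.0311 to 0.528 when each library was left out, lowest without UCM replicate 2 and highest without UCM replicate 1. Members called higher were 1 with DESeq2, 0 to 1 when each library was left out, and 2 (*EGFR* and *ERRFI1*) without both libraries numbered 1 or without ACM replicate 2 and UCM replicate 1, these last alternatives chosen after seeing the data; without UCM replicate 1 alone the gene was *EGFR*, without ACM replicate 1 *ERRFI1*. Members called lower stayed at 1. The 1.5-fold rule gave 1 to 2 when each library was left out, and 1 with the replicate block, where *ERRFI1* missed an unadjusted p of 0.05.

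All genes higher and lower, 484 and 320 of 14451 tested, became 725 and 422 of 13133 with DESeq2. With a filter of at least 1 count they became 1045 and 679 of 25486. With limma they became 230 and 132 on log2(TPM + 1) and 234 and 138 on log2(TPM + 0.1). With the length offset they became 272 and 134. They were 1017 and 726 without both libraries numbered 1, and 611 and 495 without ACM replicate 2 and UCM replicate 1. Leaving out each library gave 125 to 738 higher and 62 to 572 lower, fewest without UCM replicate 2 for higher and without UCM replicate 3 for lower. The ERK-responsive genes called higher, 8, were 13 with DESeq2, 14 without ACM replicate 2 and UCM replicate 1, and 2 to 10 when each library was left out. The cause of these shifts was not tested.

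The replicate numbers were checked for pairing. Deviations from the group means correlated with r = 0.359, 0.036 and 0.228 for numbers 1, 2 and 3. ACM replicates 1 and 2 correlated best with the UCM library of the same number, and ACM replicate 3 with UCM replicate 2 (r = 0.244). The labels do not say that the numbers pair libraries. With the replicate block, 909 genes were higher and 703 lower, and the calls of *ETV5* (edgeR adjusted p = 0.0667) and *CD68* (0.0763) were lost. At 17135270 to 21053214 counts per library, *AREG* and *EREG* had no count to compare, and with a filter of at least 1 count in total *ERBB3* and *TGFA* were not called (edgeR adjusted p = 0.830 and 0.517).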
